A study of Homo sapiens with 6 samples.

Results

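AXL, its relatives TYRO3 and MERTK, their ligand GAS6, and the receptor tyrosine kinases MET, EPHA2, EPHB4, IGF1R, FGFR1 and DDR1 were examined in MDA-MB-231 cells with and without YAP1 knockdown. These 10 genes, out of 60612 gene IDs in the expression values, were selected on the gene values of this contrast, around the lower AXL level in the Sh-YAP1 libraries. Their values in that contrast are therefore a description, and no p-value of theirs is used as support. MDA-MB-231 is an established human triple-negative breast cancer line, and the labels give the cells as epithelial. The Sh-NC group carries a control hairpin and the label WT, and the Sh-YAP1 group carries a hairpin against YAP1 and the label YAP1 knockdown. Both were stably expressing cells, without further treatment, collected on day 3, and each group has 3 libraries. The labels show 1 knockdown group and do not say how many hairpins or clones it holds, nor whether the 3 libraries came from separate cultures. P-values therefore measure only the spread between these libraries, which may be technical.

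Receptor tyrosine kinases are membrane proteins that bind a ligand outside the cell and phosphorylate tyrosines inside it, which recruits adaptors and opens the RAS and PI3K cascades. AXL, TYRO3 and MERTK form the TAM family, whose ligands GAS6 and protein S need vitamin K-dependent carboxylation. YAP1 is a transcriptional coactivator that binds DNA through TEAD factors, and AXL is a known YAP1 target in other cells. AXL and EPHA2 are commonly abundant in mesenchymal-like breast cancer lines such as this one.

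YAP1 itself was 25.7 ± 2.66 FPKM in Sh-NC against 2.87 ± 0.42 FPKM in Sh-YAP1 (SD, n = 3). FPKM is fragments scaled to transcript length and to the mapped fragments of the library, so levels can be compared between genes, and each gene value here is the sum of all its transcript entries. The difference in YAP1 was -2.79 ± 0.12 on the log2(FPKM + 1) scale (standard error, SE), with an adjusted p of 0.0018 (limma, Benjamini-Hochberg over all genes tested). The FPKM of a library summed to 467493 to 475116, and the number of reads behind them is unknown. VIM, KRT8 and CD44 exceeded 100 FPKM in every library. The hormone receptor genes ESR1 and PGR stayed at or below 0.07 FPKM and CDH1 at or below 0.49 FPKM. ERBB2 was measured at 14.3 to 18.1 FPKM. KRT19, an epithelial keratin, fell by 0.50 on the log2 scale with an adjusted p of 0.0273 (limma). The leukocyte markers PTPRC and CD3E did not exceed 0.04 FPKM. CD68, a macrophage marker also made by many cell lines, was between 56.2 and 80.2 FPKM in both groups.

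The regulatory stretches just before the annotated starts of AXL and EPHA2 are shown because these were the most abundant receptors, AXL lower in Sh-YAP1 and EPHA2 with overlapping groups. Bases in capitals are matches to the TEAD core GGAATG, searched on both strands, where CATTCC is its reverse complement. The sequences are from RefSeq on GRCh38.p14, and each ends at the start site or before the first base of an annotated exon. The first AXL stretch lies at chr19:41218973-41219202 on the plus strand, directly before the gene. The second AXL stretch lies at chr19:41226505-41226754 on the plus strand, before an alternative start inside an intron. The EPHA2 stretch lies at chr1:16156088-16156319 and is written on the minus strand.
AXL upstream start: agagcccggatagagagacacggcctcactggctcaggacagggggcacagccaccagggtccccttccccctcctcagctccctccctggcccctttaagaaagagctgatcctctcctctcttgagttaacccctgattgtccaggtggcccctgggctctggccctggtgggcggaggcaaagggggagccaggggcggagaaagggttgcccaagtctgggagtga
AXL internal start: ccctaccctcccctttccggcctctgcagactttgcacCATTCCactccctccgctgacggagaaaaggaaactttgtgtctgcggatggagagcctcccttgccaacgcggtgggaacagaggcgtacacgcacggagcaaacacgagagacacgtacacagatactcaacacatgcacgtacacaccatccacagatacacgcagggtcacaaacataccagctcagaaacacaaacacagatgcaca
EPHA2: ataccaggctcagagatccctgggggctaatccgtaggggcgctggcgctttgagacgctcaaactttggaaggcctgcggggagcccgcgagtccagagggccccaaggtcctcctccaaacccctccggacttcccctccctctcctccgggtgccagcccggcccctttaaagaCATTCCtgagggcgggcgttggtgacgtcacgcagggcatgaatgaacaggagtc

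In a window from 250 bases before to 50 bases after each start, the GGAATG letters were present in 14.0% of 35116 annotated windows. They were present in 3 of 18 windows of these genes, 1 each of AXL, EPHA2 and DDR1. The AXL match was in the internal start window, and the main upstream window of AXL held none. The AP-1 letters TGANTCA, which are the same on both strands and can share TG with GGAATG, were present in 7.71% of all windows and in 2 of the 18, 1 of TYRO3 and 1 of DDR1. FGFR1 had no window in the table used, and DDR1 alone had 8 of the 18. The matches are a description of letters, and binding was not measured.

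AXL was the most abundant receptor tyrosine kinase in every library. It ranked first of 58 family members in all 6 libraries, and 208th of the 60612 gene IDs by its Sh-NC mean. The order in Sh-NC was AXL, EPHA2, GAS6, FGFR1, MET, IGF1R, EPHB4, DDR1, MERTK and TYRO3. In that group the ranges of FGFR1 and MET, of DDR1 and MERTK, and of MERTK and TYRO3 overlapped. In Sh-YAP1 the order was the same, and the overlapping neighbours were EPHA2 with GAS6, FGFR1 with MET, EPHB4 with DDR1, and DDR1 with MERTK. Of the 58 receptors, 10 averaged 10 FPKM or more in Sh-NC, 27 averaged 1 FPKM or more and 22 were under 0.1 FPKM.

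**Figure D1:**
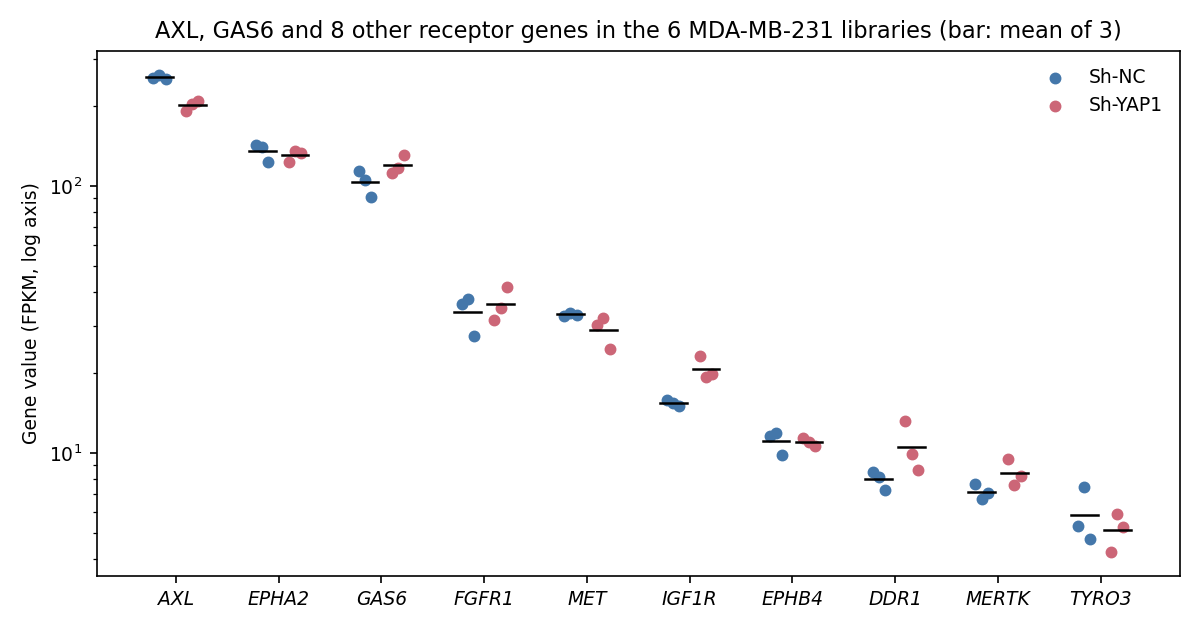
Gene values in FPKM, on a log axis, of the 10 genes ordered by their Sh-NC mean, with a point for each of the 3 Sh-NC and 3 Sh-YAP1 libraries and a bar at the mean of 3. AXL points lie between 251 and 261 FPKM in Sh-NC and between 190.2 and 208 FPKM in Sh-YAP1.

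AXL (ENSG00000167601, chr19:41219203-41261766, plus strand, positions throughout from GENCODE 29 on GRCh38) was measured at 254, 261 and 251 FPKM in the Sh-NC libraries and 190.2, 202 and 208 FPKM in the Sh-YAP1 libraries. Every Sh-YAP1 library was below every Sh-NC library. The means were 256 ± 5.23 and 200.3 ± 9.28 FPKM (SD, n = 3), a difference of -21.6% of the Sh-NC mean. On the log2(FPKM + 1) scale the difference was -0.35 ± 0.06 (SE). In RNA from bulk cells, fewer cells that express a gene and less RNA per cell cannot be told apart. An antisense gene, AC011510.1, overlaps AXL on the opposite strand and averaged 1.44 FPKM in Sh-NC against 0.95 FPKM in Sh-YAP1. The strandedness of the libraries was not given in the sources used here, so reads of the pair cannot be told apart.

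AXL had 5 transcript entries, which the values do not name. The leading entry carried 83.7% of the gene value in Sh-NC and 81.6% in Sh-YAP1. Its values were 215, 222 and 204 FPKM in Sh-NC against 154.9, 170.3 and 164.9 FPKM in Sh-YAP1, and the groups did not overlap. The second entry ran from 25.0 to 46.4 FPKM in Sh-NC and from 19.8 to 43.1 FPKM in Sh-YAP1, with overlapping groups. The third entry was above 8 FPKM in 3 libraries and at or below 0.03 FPKM in the other 3. It was above 8 FPKM in 2 Sh-NC libraries and 1 Sh-YAP1 library. The sum without the leading entry was 38.8, 39.3 and 47.2 FPKM in Sh-NC against 35.3, 31.9 and 43.5 FPKM in Sh-YAP1, which overlapped, and its log2 difference was -0.18. The difference of the gene value thus lay mainly in the leading entry.

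**Figure D2:**
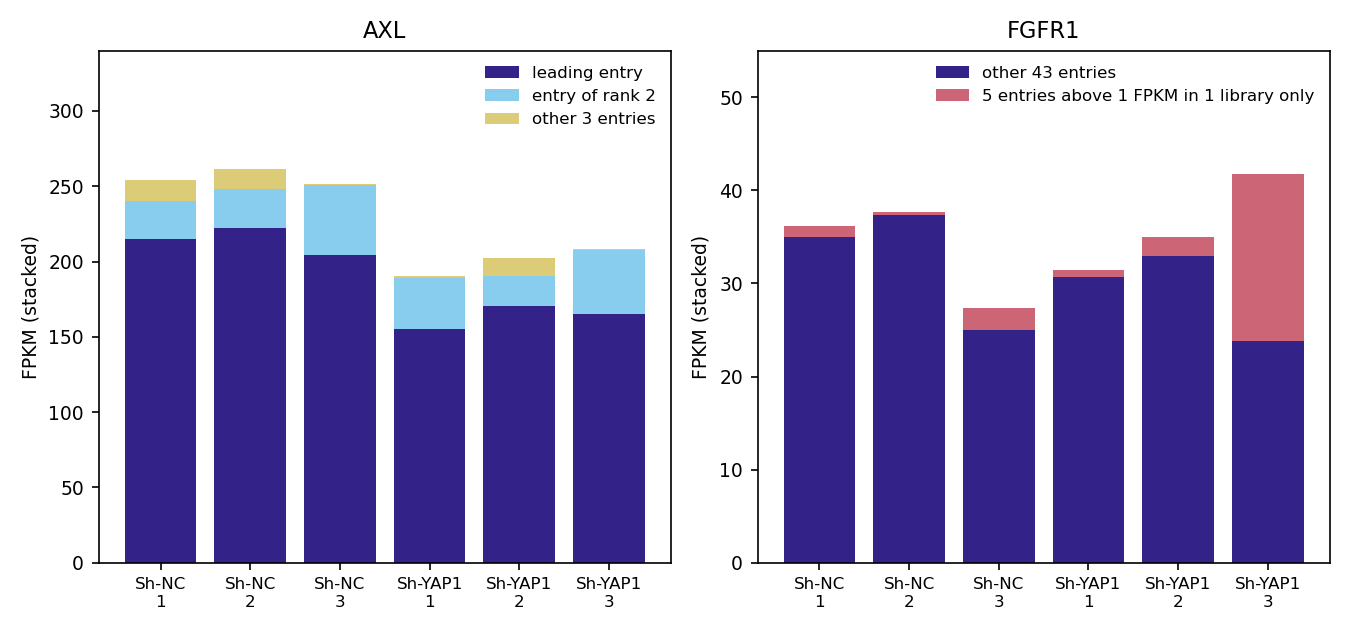
Transcript entries of AXL (left) and FGFR1 (right), stacked in FPKM for each library. The leading AXL entry is 204 to 222 FPKM in Sh-NC against 154.9 to 170.3 FPKM in Sh-YAP1, and the 5 FGFR1 entries that exceed 1 FPKM in 1 library only reach 17.9 FPKM in Sh-YAP1 replicate 3.

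Summed over the 58 receptors, the values were 673, 686 and 656 FPKM in Sh-NC against 610, 612 and 615 FPKM in Sh-YAP1. The summed means were 672 ± 15.0 and 612 ± 2.69 FPKM (SD, n = 3), a difference of -59.6 FPKM. Without AXL the sums were 416 ± 10.3 and 412 ± 6.76 FPKM, a difference of -4.32 FPKM, which was smaller than the spread within either group. AXL accounted for 38.0% ± 0.29 of the receptor sum in Sh-NC and 32.7% ± 1.38 in Sh-YAP1. These sums contain AXL, so they restate its difference and are not a further result.

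**Figure D3:**
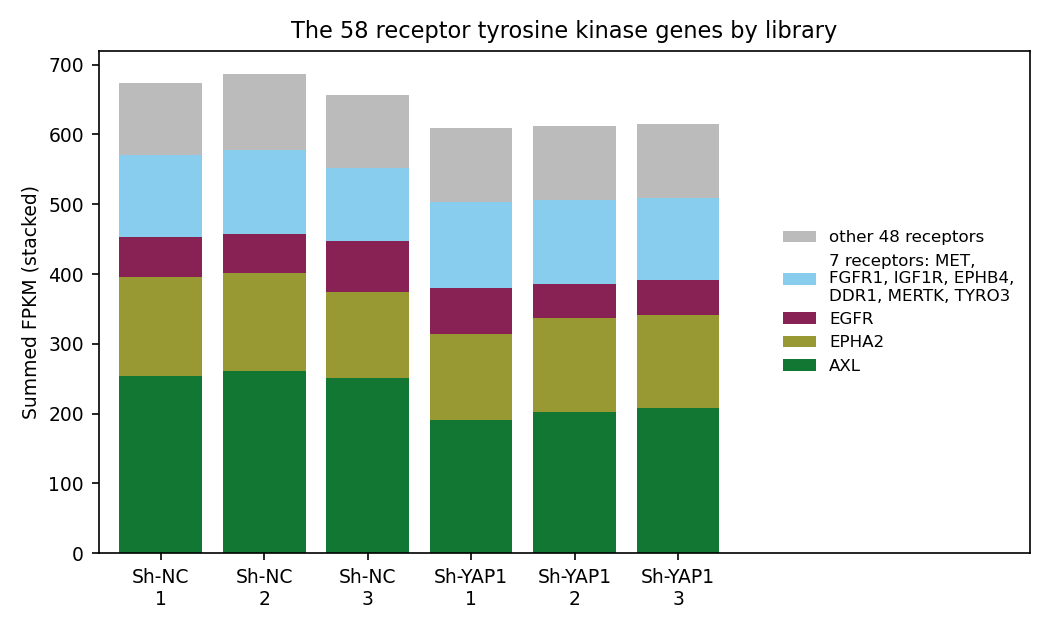
Summed FPKM of the 58 receptor tyrosine kinase genes in each library, stacked as AXL, EPHA2, EGFR, 7 further described receptors and the other 48. The AXL layer is lower in the 3 Sh-YAP1 libraries, while the sum of the rest averages 416 FPKM in Sh-NC against 412 FPKM in Sh-YAP1.

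The other TAM receptors were far less abundant than AXL. TYRO3 (ENSG00000092445, chr15:41557675-41583586, plus strand) was 5.32, 7.42 and 4.75 FPKM in Sh-NC against 4.26, 5.90 and 5.29 FPKM in Sh-YAP1. The groups overlapped, and the log2 difference was -0.14 ± 0.17 (SE). The TYRO3 direction was not stable, at 0.02 without Sh-NC replicate 2, 0.06 without entries above 1 FPKM in exactly 1 library and -0.56 without the leading entry. Without each of the other libraries in turn the difference stayed negative, between -0.26 and -0.03. MERTK (ENSG00000153208, chr2:111898479-112029561, plus strand), best known for the clearance of dying cells by phagocytes, was 7.66, 6.71 and 7.05 FPKM in Sh-NC. In Sh-YAP1 it was 9.47, 7.61 and 8.18 FPKM. The groups overlapped by the lowest Sh-YAP1 library, and the log2 difference was 0.21 ± 0.10 (SE). It was 0.13 without Sh-YAP1 replicate 1, 0.33 without entries above 1 FPKM in exactly 1 library, and -0.42 for what remained without the leading entry. The overlap came from an entry of 1.91 FPKM that was at 0 in every library except Sh-NC replicate 1. The leading MERTK entry was 5.14 to 6.99 FPKM in Sh-NC against 7.49 to 9.29 FPKM in Sh-YAP1, without overlap. AXL made up 95.2% of the summed TAM values in Sh-NC and 93.6% in Sh-YAP1.

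GAS6 (ENSG00000183087, chr13:113820549-113864067, minus strand), the secreted ligand of the TAM receptors, was itself abundant. Its values were 113, 105 and 91.3 FPKM in Sh-NC against 112, 117 and 131 FPKM in Sh-YAP1. The groups overlapped, with means of 103 ± 11.2 and 120 ± 9.89 FPKM (SD, n = 3) and a log2 difference of 0.22 ± 0.10 (SE), which was 0.13 without Sh-NC replicate 3. The cells thus held RNA for both the receptor and its ligand in every library. The ratio of AXL to GAS6 was 2.49 ± 0.26 in Sh-NC and 1.67 ± 0.07 in Sh-YAP1 (SD, n = 3). PROS1, which encodes protein S, averaged 7.40 ± 0.94 FPKM in Sh-NC against 8.93 ± 1.79 FPKM in Sh-YAP1 (SD, n = 3).

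MET (ENSG00000105976, chr7:116672390-116798386, plus strand), the receptor of hepatocyte growth factor, was 32.7, 33.5 and 32.9 FPKM in Sh-NC. In Sh-YAP1 it was 30.2, 32.0 and 24.5 FPKM. Every Sh-YAP1 library was below every Sh-NC library, but replicate 3 stood apart from the other two. The log2 difference was -0.20 ± 0.11 (SE), and without Sh-YAP1 replicate 3 it was -0.08. MET had a pair of entries of similar size. The leading one was 15.4 to 18.7 FPKM in Sh-NC against 10.3 to 18.6 FPKM in Sh-YAP1, with overlap, and the next was 13.4 to 15.1 FPKM and 11.2 to 12.6 FPKM, without overlap. HGF, its ligand, was at 0.02 FPKM in Sh-YAP1 replicate 1 and listed at 0 in the other 5 libraries.

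The Eph receptors bind ephrins on neighbouring cells and signal in both directions. EPHA2 (ENSG00000142627, chr1:16124337-16156087, minus strand) was 142, 139.6 and 123 FPKM in Sh-NC against 123, 135 and 133 FPKM in Sh-YAP1. The groups overlapped throughout, and the log2 difference was -0.04 ± 0.08 (SE). It lay between -0.11 and -0.00 when a library was left out and was -0.16 without the leading entry. EPHB4 (ENSG00000196411, chr7:100802565-100827521, minus strand) was 11.6, 11.8 and 9.79 FPKM in Sh-NC against 11.4, 11.0 and 10.6 FPKM in Sh-YAP1. Its means were 11.1 ± 1.11 and 11.0 ± 0.42 FPKM (SD, n = 3), with a log2 difference of -0.00 ± 0.09 (SE) that was between -0.08 and 0.04 when a library was left out. The protein-coding gene SLC12A9 overlaps EPHB4 on the opposite strand and averaged 6.32 and 5.15 FPKM.

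IGF1R (ENSG00000140443, chr15:98648539-98964530, plus strand), the receptor of the insulin-like growth factors, was 15.8, 15.4 and 15.0 FPKM in Sh-NC against 23.0, 19.3 and 19.8 FPKM in Sh-YAP1. Every Sh-YAP1 library was above every Sh-NC library. The means were 15.4 ± 0.41 and 20.7 ± 2.03 FPKM (SD, n = 3), 34.4% above the Sh-NC mean, and the log2 difference was 0.40 ± 0.09 (SE). The leading entry, 48.1% of the Sh-NC gene value, was 7.11 to 7.66 FPKM in Sh-NC against 9.60 to 11.4 FPKM in Sh-YAP1. The close relative INSR, the insulin receptor, was 3.55 to 4.04 FPKM and 3.97 to 4.07 FPKM in the same groups, so the IGF1R to INSR ratio was 4.06 ± 0.16 in Sh-NC and 5.17 ± 0.53 in Sh-YAP1 (SD, n = 3). Without any 1 library the IGF1R difference lay between 0.32 and 0.45.

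DDR1 (ENSG00000204580, chr6:30876421-30900156, plus strand), a receptor that is activated by collagen, was 8.50, 8.11 and 7.27 FPKM in Sh-NC against 13.1, 9.87 and 8.62 FPKM in Sh-YAP1. The groups did not overlap, and the log2 difference was 0.35 ± 0.15 (SE). Most of it came from 1 of 58 entries. That entry was 1.60, 0.52 and 1.19 FPKM in Sh-NC against 7.30, 1.69 and 2.84 FPKM in Sh-YAP1. Without the leading entry the difference was -0.06, and without Sh-YAP1 replicate 1 it was 0.19. The direction of DDR1 therefore depended on how the entries were summed.

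FGFR1 (ENSG00000077782, minus strand of chromosome 8), a fibroblast growth factor receptor, was 36.2, 37.6 and 27.3 FPKM in Sh-NC against 31.5, 35.0 and 41.8 FPKM in Sh-YAP1. The groups overlapped, and the log2 difference was 0.10 ± 0.15 (SE). Of its 48 entries, 5 exceeded 1 FPKM in 1 library only. In Sh-YAP1 replicate 3 these 5 entries summed to 17.9 FPKM, against at most 2.28 FPKM in any other library. Without them the FGFR1 difference was -0.14, without the leading entry it was 0.22, and when a library was left out it ran from -0.04 to 0.19, negative without Sh-NC replicate 3 or Sh-YAP1 replicate 3. The gene LETM2 overlaps FGFR1 on the opposite strand and averaged 19.1 and 19.3 FPKM.

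As a description and not a test, since this contrast chose the genes, the number of the 10 past an adjusted p of 0.05 (limma, Benjamini-Hochberg) was 1, AXL. Over all 14770 genes tested, 3.38% were past it, with 1.62% lower and 1.75% higher in Sh-YAP1. AXL was not past it when any 1 library was left out. Nothing is read from the count. The groups did not overlap for 4 of the 10, AXL and MET lower and IGF1R and DDR1 higher. Among all genes tested, 29.4% did not overlap, 14.7% with Sh-YAP1 lower and 14.6% with Sh-YAP1 higher. The median log2 difference was 0.05 over the 10 genes and -0.00 over all genes tested, and 5 of the 10 were negative and 5 positive.

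**Figure D4:**
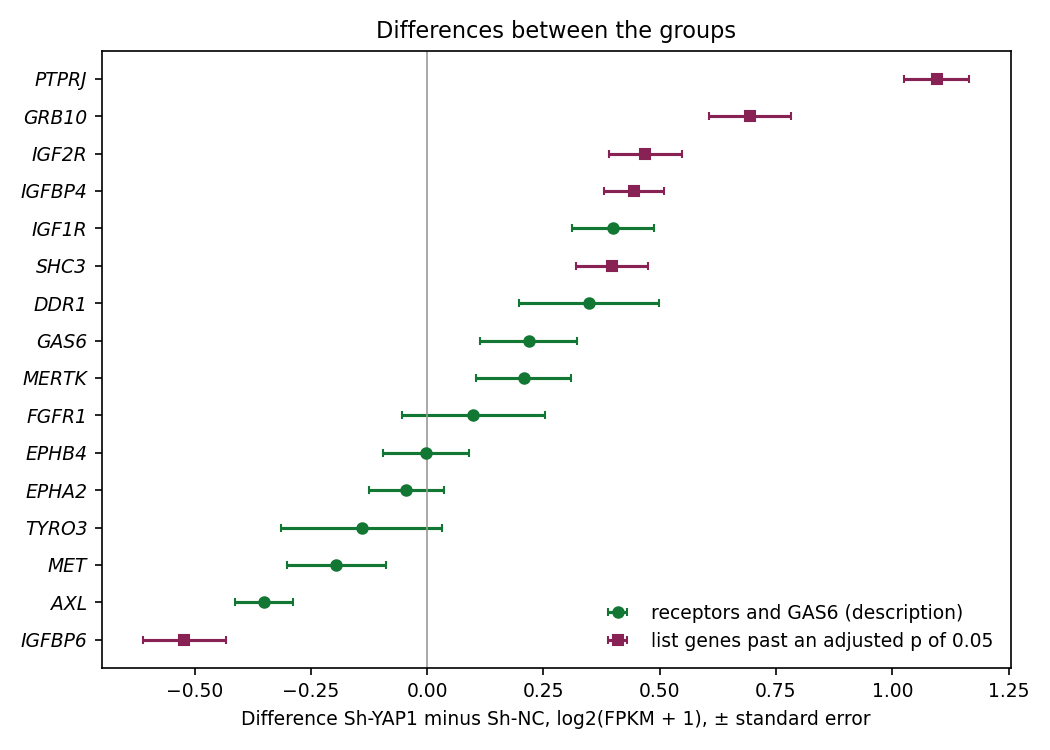
Differences between Sh-YAP1 and Sh-NC on the log2(FPKM + 1) scale with their standard errors, for the 10 described genes (circles) and the 6 list genes past an adjusted p of 0.05 (squares). The described genes run from -0.35 for AXL to 0.40 for IGF1R.

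The other 49 receptor tyrosine kinases were then examined by family membership. Of these, 20 passed the filter of a mean of 0.5 FPKM and 29 did not. None of the 20 was past the threshold (limma, Benjamini-Hochberg), against 3.38% of all genes. An unadjusted p under 0.05 was found for 3 of the 20, against 3241 of the 14770 genes tested. Their median log2 difference was -0.05, and they ran from -0.42 for STYK1 to 0.45 for ROR1. EGFR, the epidermal growth factor receptor and the most abundant of the 49, was 57.0, 55.8 and 73.5 FPKM in Sh-NC against 66.4, 48.6 and 49.3 FPKM in Sh-YAP1, with overlap and a log2 difference of -0.18 ± 0.16 (SE). It was -0.06 without Sh-NC replicate 3, the highest library, and -0.33 without Sh-YAP1 replicate 1. PTK7 and RYK, pseudokinase receptors of WNT signalling, had log2 differences of -0.02 ± 0.10 and 0.18 ± 0.10. PTK7 ran from -0.11 to 0.06 when a library was left out and was 0.87 without its leading entry, and RYK was 0.08 without Sh-NC replicate 1. ROR1, a further WNT receptor that was named for its size after the values were seen, was 4.22 to 6.54 FPKM in Sh-NC against 6.41 to 8.34 FPKM in Sh-YAP1, with an adjusted p of 0.171 (limma).

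Ligands of the receptors among the 10 genes, other than GAS6, were mostly low. This list was not drawn up for the other receptors of the family. Of 36 ligand genes, 15 were tested and 0 were past the threshold (limma), against 3.38% of all genes. An unadjusted p under 0.05 was found for 3 of the 15, against the same 3241 of 14770. The median log2 difference was -0.11. IGF1 was listed at 0 in all 6 libraries and FGF2 did not exceed 0.03 FPKM. IGF2, named with COL1A2 after the values were seen, was 1.77, 1.11 and 0.98 FPKM in Sh-NC against 0.97, 0.44 and 0.26 FPKM in Sh-YAP1. The groups did not overlap, and the log2 difference was -0.56 ± 0.21 with an adjusted p of 0.186 (limma). COL1A2, a fibrillar collagen chain, was 1.28, 1.96 and 0.97 FPKM in Sh-NC against 0.72 and 0.17 FPKM and a listed 0 in Sh-YAP1. Its log2 difference of -0.91 ± 0.24, the most negative of the ligands, had an adjusted p of 0.101 (limma). FGF5, a ligand of FGFR1, was 27.7, 27.4 and 31.1 FPKM in Sh-NC against 23.6, 22.4 and 26.0 FPKM in Sh-YAP1. Every Sh-YAP1 value of FGF5 was lower, but its log2 difference of -0.25 ± 0.09 had an adjusted p of 0.1701 (limma). COL4A2, a basement membrane collagen, had a log2 difference of -0.09 ± 0.09, which was -0.02 without Sh-YAP1 replicate 1 and -0.05 without Sh-NC replicate 2. EFNB2, a ligand of EPHB4, was 12.1, 12.0 and 11.9 FPKM in Sh-NC against 4.24, 15.3 and 16.2 FPKM in Sh-YAP1. Its difference of -0.19 ± 0.44 rested on Sh-YAP1 replicate 1, without which it was 0.37. Without replicate 2 or replicate 3 of Sh-YAP1 it was -0.45 and -0.49.

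Genes that process or restrain the receptors held 5 of the 6 calls among the lists. Of 33 regulators, 27 were tested, and 5 changed (18.5% of those tested, against 3.38% of all genes), 4 rising and 1 falling. The gene lists were chosen with earlier results of these data known, so this share is a description and not a test. The count was 1 to 2 when a library was left out. The median log2 difference over the 27 was 0.03. PTPRJ, a receptor-type tyrosine phosphatase that removes phosphate from MET and other receptors, was 15.4, 16.7 and 15.6 FPKM in Sh-NC against 34.4, 36.6 and 34.2 FPKM in Sh-YAP1. It rose by 1.10 ± 0.07 on the log2 scale, with an adjusted p of 0.0041 (limma). PTPRJ kept its call without any 1 library, with an adjusted p of 0.021 to 0.0296 (limma). It lost the call with the replicate block (adjusted p 0.0996) and without the leading entry (difference 1.22, adjusted p 0.173). Without entries above 1 FPKM in exactly 1 library, PTPRJ had a difference of 0.70 and an adjusted p of 0.304 (limma). That alternative left out 2 PTPRJ entries of 18.0 and 1.89 FPKM, both listed in Sh-YAP1 replicate 1 only, and PTPRJ was then 14.6 FPKM in that library.

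GRB10, an adaptor that binds and restrains the insulin and IGF1 receptors, was 11.8, 12.0 and 10.7 FPKM in Sh-NC against 19.5, 17.5 and 20.5 FPKM in Sh-YAP1. It rose by 0.69 ± 0.09, with an adjusted p of 0.0174 (limma). IGF2R, which binds IGF2 and carries it to lysosomes, was 17.2, 15.9 and 15.2 FPKM in Sh-NC against 23.4, 21.5 and 23.1 FPKM in Sh-YAP1, and it rose by 0.47 ± 0.08 with an adjusted p of 0.0333 (limma). IGFBP4, a secreted IGF-binding protein, averaged 617 ± 32.9 FPKM in Sh-NC against 839 ± 16.2 FPKM in Sh-YAP1 (SD, n = 3). IGFBP4 rose by 0.44 ± 0.07, with an adjusted p of 0.0245 (limma). IGFBP6, a binding protein that prefers IGF2, was 39.5, 36.8 and 32.7 FPKM in Sh-NC against 23.8, 25.7 and 25.4 FPKM in Sh-YAP1. It fell by 0.52 ± 0.09, with an adjusted p of 0.0346 (limma). The groups did not overlap for any of these 4 genes. They were named for passing the threshold in the same contrast, so this adds no support. Of the 27 regulators tested, 11 did not overlap, against 29.4% of all genes tested.

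The calls were close to the threshold. When libraries were left out in turn, the adjusted p ran from 0.0485 to 0.0693 for GRB10, from 0.0799 to 0.110 for IGF2R, from 0.0545 to 0.0931 for IGFBP4 and from 0.0468 to 0.112 for IGFBP6 (limma). GRB10 passed only without Sh-YAP1 replicate 2, and IGFBP6 only without Sh-NC replicate 3. The directions of all 4 were kept in those fits. With the replicate block all 4 lost the call, and without the leading entry so did those that could still be tested. Without entries above 1 FPKM in exactly 1 library, GRB10 had an adjusted p of 0.0822 (limma). Among the regulators with the highest levels, SPINT2, an inhibitor of the protease that activates hepatocyte growth factor, had a log2 difference of -0.35 ± 0.13 and ERRFI1, an EGFR inhibitor, one of -0.11 ± 0.06, and neither was past the threshold. Without the leading entry they were -0.98 and -0.28, also not past it, and ERRFI1 was -0.07 with quantile normalization. GGCX, the enzyme that carboxylates GAS6, was 14.0 to 15.9 FPKM in Sh-NC against 13.4 to 13.8 FPKM in Sh-YAP1, an adjusted p of 0.329 (limma). VKORC1 and VKORC1L1, listed with GGCX for this step, were named after their values were seen. VKORC1 had the most negative difference of the regulators, -0.63 ± 0.36, with overlapping groups and an adjusted p of 0.353 (limma). VKORC1L1 had a difference of -0.49 ± 0.31, with overlapping groups and an adjusted p of 0.406 (limma).

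**Figure D5:**
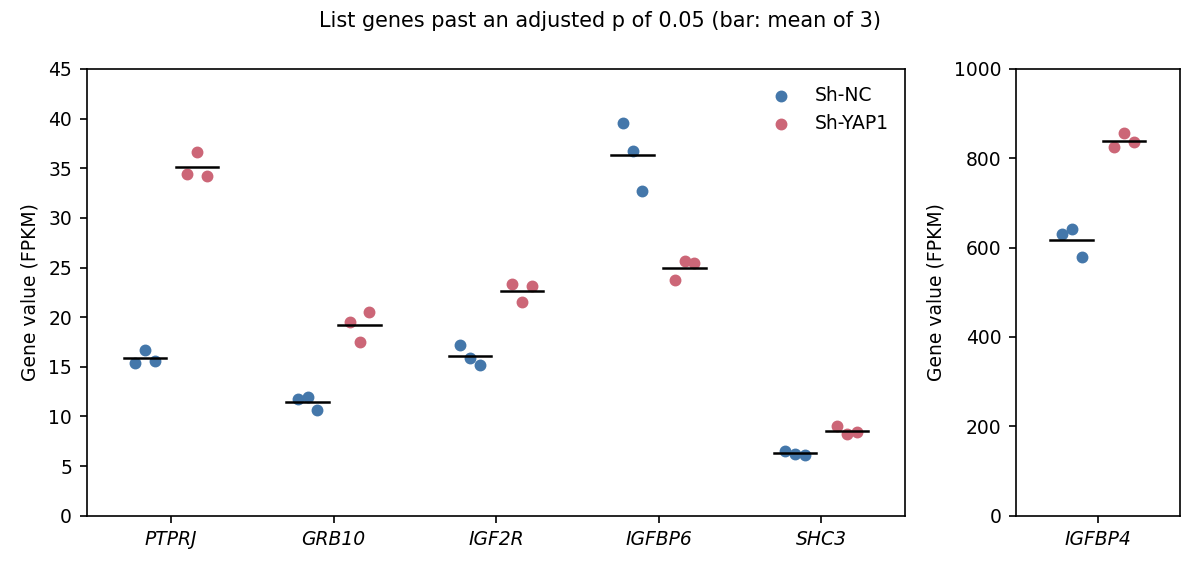
Gene values in FPKM of the 6 list genes past an adjusted p of 0.05, with a point for each library and a bar at the mean of 3, and IGFBP4 on an axis of its own. IGFBP6 is 32.7 to 39.5 FPKM in Sh-NC against 23.8 to 25.7 FPKM in Sh-YAP1, and the other 5 genes are higher in all 3 Sh-YAP1 libraries.

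The last list held adaptors and kinases that act below the receptors. Of its 38 genes, 37 were tested and 1 changed (2.70%, near the 3.38% of all genes), with a median log2 difference of 0.05. SHC3, an adaptor that links receptors to RAS, was 6.50, 6.23 and 6.09 FPKM in Sh-NC against 9.05, 8.23 and 8.46 FPKM in Sh-YAP1. It rose by 0.40 ± 0.08, with an adjusted p of 0.0495 (limma), and was not past the threshold without any 1 library (adjusted p 0.113 to 0.137). The abundant MAP2K2, AKT1 and SHC1 had log2 differences of 0.16 ± 0.11, 0.08 ± 0.16 and 0.07 ± 0.11, all with overlapping groups. When a library was left out these ran from 0.05 to 0.25, from -0.02 to 0.25 and from -0.02 to 0.14, so the direction of AKT1 and SHC1 was not stable. Without the leading entry the differences were 0.39, 0.17 and 0.72. GRB2, the adaptor between receptors and SOS, had the most negative difference of the list and was named after its values were seen. It was 50.1, 53.5 and 49.1 FPKM in Sh-NC against 28.0, 42.6 and 29.9 FPKM in Sh-YAP1, without overlap, and its log2 difference of -0.61 ± 0.16 had an adjusted p of 0.0899 (limma). The leading GRB2 entry was 33.8 to 52.1 FPKM in Sh-NC against 7.75 to 39.5 FPKM in Sh-YAP1, with overlap. The second GRB2 entry went the other way, from 0.66 to 1.22 FPKM in Sh-NC against 2.41 to 10.6 FPKM in Sh-YAP1, without overlap. The groups did not overlap for 12 of the 37 genes tested, 7 lower and 5 higher, against 29.4% of all genes.

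The genes whose pattern over the 6 libraries was most like that of AXL were PSMB7, EIF4HP1, ENSG00000275464, IFI30 and IER5. The measure was Pearson's correlation on the log2(FPKM + 1) scale over 6 libraries, among 8755 genes averaging 5 FPKM or more, and it was 0.998, 0.998, 0.998, 0.996 and 0.996. The libraries fall into 2 groups with different AXL levels, so a high value mainly restates lower values in Sh-YAP1. PSMB7, a proteasome subunit, averaged 180.1 FPKM in Sh-NC against 151.5 FPKM in Sh-YAP1. IFI30, a lysosomal thiol reductase, averaged 39.2 and 18.6 FPKM, and IER5, an immediate early response gene, 11.9 and 8.37 FPKM.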

How the data were processed

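The paper credits LC-Bio with its RNA-sequencing but cites a different series entry there, so these libraries were tied to the paper through their labels (cell line, knockdown and replicate). The authors deposited FPKM values, 1 per transcript entry and library, with a gene ID and no transcript ID. The submitters' processing notes name HISAT2 2.0, Bowtie 0.12.2 and hg19. The quantifier, annotation and strandedness are not given in the sources used here. These steps fix how reads were divided among entries, and depth is unknown.

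Entries were summed per gene ID, and symbols and positions were taken from GENCODE 29 (GRCh38), not from the values. The 14770 genes averaging 0.5 FPKM or more were compared on log2(FPKM + 1) with limma 3.58.1 (R 4.3.3, mean-variance trend), Benjamini-Hochberg adjusted over all genes, at 0.05. With 3 against 3 libraries an exact permutation test cannot go below p = 0.1, so none was used. The code was tested on simulated data. Tables and figures used Python 3.11.15, numpy 2.4.6, pandas 2.3.3 and matplotlib 3.10.9.

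The 10 genes and the gene lists were chosen with earlier results of these data known. Named genes were the 10, YAP1, up to 5 genes per list past the threshold by size, the 3 per list with the highest Sh-NC mean, the 5 most like AXL, and cell type markers. STYK1, ROR1, GRB2, PROS1, INSR, GGCX, VKORC1, VKORC1L1, HGF, IGF1, IGF2, FGF2, COL1A2 and overlapping genes were named outside that rule, some chosen once values were known. Alternatives covered the pseudocount, scaling, trend, filter, replicate block, left-out libraries and the summing of entries.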

Additional observations from a re-analysis of the deposited data

How the results depend on the processing

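Without reads per gene, sampling error within a library could not be separated from the spread between libraries. Among the list genes past the threshold, only PTPRJ kept its call without any 1 library. The value of AXL stayed negative under every alternative run. Its log2 difference was -0.35, and it was -0.26 with quantile normalization, -0.18 without the leading entry of each gene, and between -0.38 and -0.31 when a library was left out. In limma, AXL was no longer past the threshold without the mean-variance trend, without a filter, with a replicate block, without the leading entry, or without any 1 library, so the count of the 10 genes went from 1 to 0 in each.

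The number of genes changed was 499. It was 232 without a filter, 1 with the replicate block, 0 without the leading entry (limma), and 78 to 171 when a library was left out. The 5 regulators became 2 without a filter, 0 with the replicate block, 0 without the leading entry, 3 without entries above 1 FPKM in exactly 1 library (an alternative chosen after seeing the data), and 1 to 2 when a library was left out. The count of signalling genes was 1 (SHC3). It became 0 under quantile normalization, median centring, no trend, no filter, the replicate block, without the leading entry and without entries above 1 FPKM in exactly 1 library, and it was 1 with entries averaging 0.1 FPKM or more. It was 0 to 1 when a library was left out, and the 1 call, without Sh-YAP1 replicate 2, was of a gene that fell and so was not SHC3. The other receptors and the ligands had 0 calls under every alternative run. With the replicate block, 2779 genes had an unadjusted p under 0.05, against 3241 without it. Replicate numbers did not pair the libraries, as same-numbered deviations correlated at -0.03, 0.06 and 0.00. EFNB2, IGFBP4 and SHC3 had too little left without their leading entry to be tested. The cause of these shifts was not tested. Among the 28 genes whose differences were recomputed, no called direction reversed, and the median log2 difference of all genes was between -0.02 and 0.00 under every alternative run.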
